A study of Rattus norvegicus with 14 samples.

Results

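The genes described here encode cullins, F-box proteins, ubiquitin-conjugating enzymes (E2 enzymes) and ubiquitin-specific proteases, the USP family of deubiquitinases, in rat hippocampus. Members were chosen by name and by level: a symbol that begins with Ube2, or with Cul, Fbxl, Fbxo, Fbxw or Usp and a digit, with Usp18 left out, and a level of at least 1 FPKM (fragments scaled to transcript length and to the mapped fragments of the library) in at least 4 of the 14 libraries. Of 157 genes with such a name 133 passed, among 12744 genes of the files that met the same level and 22601 genes in all. The 133 members were 7 cullin, 49 F-box (14 Fbxl, 27 Fbxo and 8 Fbxw), 33 E2 and 44 USP genes. The measured level thus chose the members together with the name. Of the 133, 130 reached 1 FPKM in all 14 libraries and 3 in some. No member reached the threshold in libraries of 1 group alone.

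Ubiquitin is passed from an activating enzyme (E1) to an E2 enzyme and then, with the help of a ligase (E3), to a lysine of the target protein. Cullins are the scaffolds of the largest class of ligases. One end of the scaffold holds a RING protein that recruits the charged E2, and the other holds a substrate receptor through an adaptor. F-box proteins are the substrate receptors of Cul1 ligases, BTB proteins those of Cul3, and DCAF proteins those of Cul4a and Cul4b. Cullins are switched on by attachment of the ubiquitin-like protein Nedd8 and switched off by the COP9 signalosome. Ubiquitin-specific proteases take ubiquitin off again. In neurons the system is known for its part in turnover of synaptic proteins and receptors.

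Wild-type Wistar rats of 180 to 220 g gave 14 hippocampal samples, each measured by RNA sequencing of bead-captured mRNA. The groups were PTZ+Q808 (rats of the seizure model induced with PTZ that were given Q808, n = 5), PTZ (the same model given vehicle, n = 5) and control (vehicle in place of both, n = 4). PTZ, or pentylenetetrazole, is a convulsant that blocks GABA-A receptors, and Q808 is known here by its code name. The sources used here give no age, sex, dose or interval to sampling. The series' design counts 5, 5 and 4 rats in PTZ+Q808, PTZ and control, as many as there are samples, without saying that each sample is 1 rat. The p-values measure the spread between samples.

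The sum of FPKM per library was 383126 to 419358, and the relative sequencing depth, estimated from the value of a single fragment in low genes, was 0.858 to 1.04 of control replicate 1. The lowest depth was that of PTZ+Q808 replicate 2. Markers of the labelled tissue were present in every library. The summed level of 4 markers of hippocampal granule and pyramidal cells was 194 to 287 FPKM in PTZ+Q808, 229 to 294 in PTZ and 212 to 263 in control, and that of 5 neuronal markers 1890 to 2240 FPKM in PTZ+Q808, 1750 to 2130 in PTZ and 1610 to 2030 in control. Some libraries stood apart in markers of other tissue. The choroid plexus transcript Ttr was below 1000 FPKM in PTZ+Q808 replicate 1, PTZ replicate 2 and control replicate 3. The striatal transcript Drd2 was high in control replicate 2, and the pituitary transcript Prl in PTZ+Q808 replicate 3. Y-linked transcripts were present in 3 of 5 PTZ+Q808, 3 of 5 PTZ and 2 of 4 control libraries.

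The families differed in level. E2 genes had a median of 40.5 FPKM (range of gene means 0.762 to 101), cullin genes 15.7 (7.72 to 25.1), F-box genes 14.1 (1.46 to 209) and USP genes 11.4 (1.26 to 112), beside 9.70 for all genes tested. Since the level was part of the rule, this is a description. Among cullins the order was led by Cul1, the scaffold of SCF ligases, at 25.1 FPKM over the 14 libraries, then Cul3 at 20.8 and Cul4a at 17.0. Among E2 genes the 3 highest were Ube2s at 101 FPKM, an enzyme that extends chains for the anaphase-promoting complex, Ube2d2 at 100.4, a broadly acting E2, and Ube2m at 93.1, which loads Nedd8 onto cullins. The means of these 3 E2 genes lay within their spread over libraries (coefficients of variation of 8.33%, 7.55% and 7%). Ube2d2 has close paralogs, so its reads may have been split among them. Among USP genes, the highest were Usp22 at 112 FPKM, which removes ubiquitin from histones as part of the SAGA complex, Usp14 at 82.2, a deubiquitinase bound to the proteasome, and Usp11 at 57.1.

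**Figure D1:**
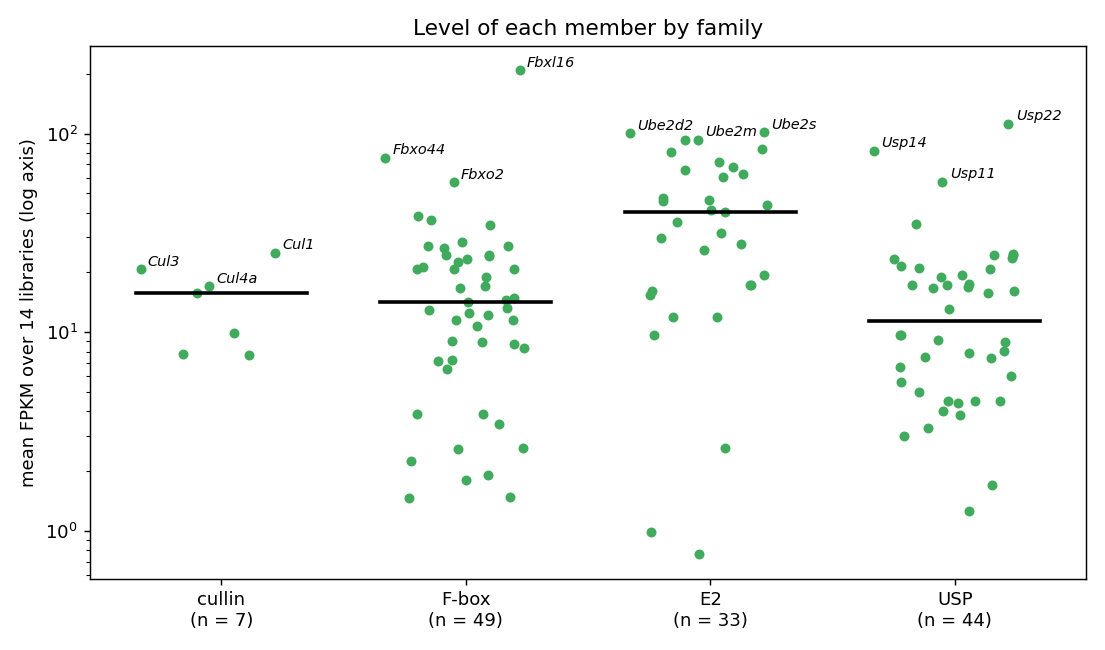
Mean FPKM over 14 libraries (log axis) for each of the 133 members, by family, with 1 point per gene, the median of each family as a bar, and the 3 highest members of each family named. E2 genes had the highest median, 40.5 FPKM, and the F-box gene Fbxl16 the highest level, 209 FPKM.

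The F-box family was led by Fbxl16, a leucine-rich F-box gene, at 209 FPKM, followed by Fbxo44 at 75.7 and Fbxo2 at 56.8. Fbxo2 encodes a receptor for glycoproteins that is enriched in brain. Fbxo44 and Fbxo2 are neighbours on chromosome 5 of the RefSeq assembly, pointing away from each other with starts 580 bases apart. Per library, Fbxo44 was 71.6, 82.6, 75.0, 68.9 and 78.3 FPKM in PTZ+Q808, 67.9, 69.6, 78.5, 75.2 and 72.0 in PTZ, and 79.4, 69.7, 90.5 and 80.4 in control. Fbxo2 was 53.3, 59.2, 56.1, 55.0 and 52.9 FPKM in PTZ+Q808, 55.4, 52.0, 59.9, 54.3 and 54.1 in PTZ, and 61.7, 51.3, 66.7 and 63.0 in control. Both were highest in control replicate 3 and the groups overlapped for both.

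Because the genes face away from each other across a short stretch, their promoter windows are shown (RefSeq, build GRCr8, 250 bases before to 50 after the start, 5′ to 3′ on the strand of the gene). The Fbxo2 window is chr5:163875829-163876128 on the plus strand and the Fbxo44 window is chr5:163875450-163875749 on the minus strand. Capitals mark the GC box GGGCGG on either strand.
Fbxo2: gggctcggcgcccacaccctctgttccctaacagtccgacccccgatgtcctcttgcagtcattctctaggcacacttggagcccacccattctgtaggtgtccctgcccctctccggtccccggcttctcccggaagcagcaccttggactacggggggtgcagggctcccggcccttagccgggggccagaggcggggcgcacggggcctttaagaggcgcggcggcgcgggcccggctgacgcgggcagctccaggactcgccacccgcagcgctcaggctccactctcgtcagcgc
Fbxo44: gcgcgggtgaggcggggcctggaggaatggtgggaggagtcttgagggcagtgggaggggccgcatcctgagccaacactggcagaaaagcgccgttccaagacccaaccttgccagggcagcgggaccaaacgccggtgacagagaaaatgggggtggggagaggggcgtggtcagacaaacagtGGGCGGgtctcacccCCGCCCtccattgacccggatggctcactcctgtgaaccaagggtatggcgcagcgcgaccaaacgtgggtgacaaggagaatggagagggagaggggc
The Fbxo44 window held 2 GC boxes and the Fbxo2 window held none of the 6 motifs searched.

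Promoter windows were matched for 110 of the 133 members. The median GC content was 64.8% over members and 61.3% over the 10234 windows of tested genes, and the median number of CpG dinucleotides was 27 and 21. The GC box GGGCGG was in 70.0% of member windows and 63.1% of windows of tested genes. The CCAAT box was in 27.3% and 37.4%, the E-box CACGTG in 5.45% and 9.39%, and TATAAA in 3.64% and 6.47%. The AP-1 site TGANTCA was in 4 member windows (3.64% against 4.61%), and the cAMP response element TGACGTCA in 1 (0.909% against 3.11%). All motifs were searched on both strands, and a match is a description of letters only.

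Members varied little between libraries. Their median coefficient of variation over the 14 libraries was 8.80%, beside 11.8% for all tested genes, which had lower levels. The lowest value was that of Usp7 (2.64%), a deubiquitinase known for stabilising Mdm2, which was named after its values were seen. The most variable by family were Cul4b (17.4%) and Cul5 (12.6%), Fbxo33 (65.7%) and Fbxo32 (36.1%), Ube2u (37.0%) and Ube2c (31.6%), and Usp38 (23.0%) and Usp16 (19.9%). Ube2c and Ube2u lay near the threshold of the rule. Ube2u reached 1 FPKM in PTZ+Q808 replicates 1, 3, 4 and 5 (1.17 to 1.68 FPKM), PTZ replicate 4 (1.25) and control replicate 2 (1.09). It thus passed the rule mainly through PTZ+Q808, the group where it was highest. The value that decided membership, the fourth highest of the 14, was 1.01 FPKM for Ube2c, 1.25 for Ube2u and 1.32 for Usp40 just inside, and 0.969 for Fbxo36, 0.925 for Fbxo15 and 0.761 for Usp43 just outside. The 24 names below the threshold were 16 F-box, 2 E2 and 6 USP genes, among them the Y-linked Usp9y, listed at 0.0281 FPKM or less. Ubiquitin was named in the deposited gene ontology terms of 43 of the 44 USP members. The exception, Usp6nl, carries the name but is annotated as a GTPase activator.

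**Figure D2:**
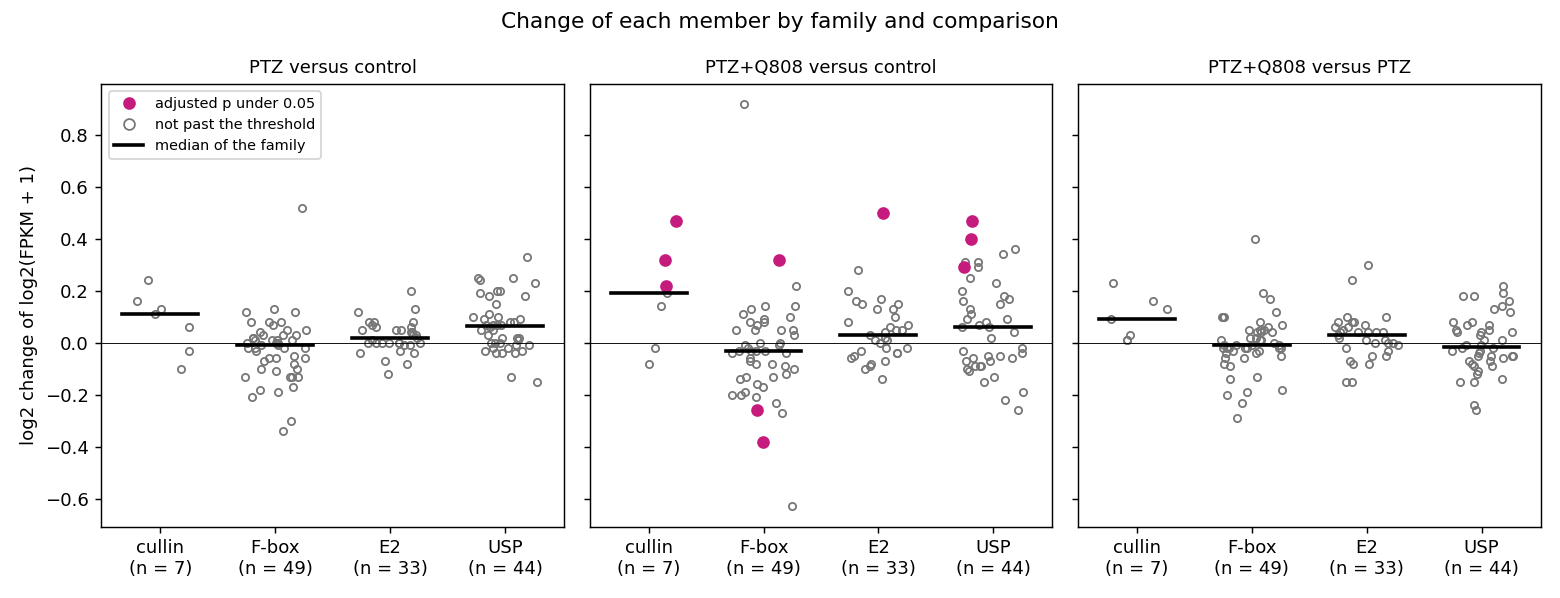
Log2 change of each member on the log2(FPKM + 1) scale, by family, in the 3 comparisons, with 1 point per gene and the median of the family as a bar. Filled points passed an adjusted p under 0.05 over all 12744 genes. They occur in PTZ+Q808 versus control (8 higher, 2 lower) and in neither of the other comparisons.

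PTZ+Q808 was first set against control, which shows convulsant and compound together. Of the members 8 rose, namely the cullins Cul1, Cul3 and Cul4b, the F-box gene Fbxo11, the E2 variant Ube2v2 and the proteases Usp15, Usp16 and Usp45, and 2 fell, the F-box genes Fbxl14 and Fbxo31. Calls are those of limma at an adjusted p under 0.05 over all genes tested. The 8 that rose are 6.02% of members, where 1.94% of all tested genes rose, and the 2 that fell are 1.5%, where 0.934% of all tested genes fell. The members were chosen with results of these data known, so the difference between these shares was given no test. Members also had a higher median level than all tested genes (16.9 against 9.70 FPKM) and a lower median coefficient of variation (8.80% against 11.8%). The part of level and spread in the shares was not tested. The ranges of the groups did not overlap for 16 members higher in PTZ+Q808 (4.75% of all tested genes) and 5 lower (4.17%). With median-of-ratios scaling 10 members rose and 1 fell.

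Cullins, the smallest family, had the largest share of calls, 3 of 7, where 1.94% of all tested genes rose. Cul4b (gene identifier 302502), a scaffold that recruits DCAF receptors through Ddb1, was 11.6, 11.8, 12.8, 11.8 and 10.1 FPKM in PTZ+Q808, 11.1, 9.002, 8.998, 9.58 and 9.94 in PTZ, and 7.90, 10.1, 7.29 and 7.31 in control. The PTZ+Q808 libraries lay above 3 of the 4 controls and met control replicate 2, which held striatal transcripts. On the log2 scale Cul4b rose by 0.47 ± 0.0924 in PTZ+Q808 (± SE here and for other log2 changes; adjusted p = 0.0231 in limma). Cul3 (301555), the scaffold that binds BTB proteins, was 22.1, 23.9, 22.8, 21.8 and 24.5 FPKM in PTZ+Q808, 18.2, 20.9, 18.2, 23.3 and 22.1 in PTZ, and 17.9, 19.8, 18.2 and 17.0 in control. All PTZ+Q808 libraries lay above all controls, and PTZ replicates 1 and 3 lay among the controls. Its log2 change was 0.32 ± 0.0744 (adjusted p = 0.0372 in limma).

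Cul1 (362356) was 26.0, 25.3, 27.7, 26.5 and 28.6 FPKM in PTZ+Q808, 23.5, 27.0, 23.3, 26.0 and 25.9 in PTZ, and 23.1, 23.3, 22.6 and 22.7 in control. The controls lay close together, and every PTZ+Q808 library was above them (log2 change 0.22 ± 0.0535, adjusted p = 0.0460 in limma). The summed level of the 7 cullins was 109 to 112 FPKM in PTZ+Q808, 92.7 to 108 in PTZ and 93.8 to 102 in control. The sums of the PTZ+Q808 libraries thus lay above all others. They contain the called Cul1, Cul3 and Cul4b, so they repeat those calls and are no separate result on the family. The other cullins did not pass. Cul2, which recruits the VHL receptor, had a log2 change of 0.19, Cul5 of 0.14, Cul4a of -0.02 and Cul9 of -0.08. The Cul4a and Cul4b paralogs were thus different in their calls, and the difference between them was not tested.

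The promoter windows of the called cullins in the RefSeq table (Cul3 was not matched) are shown because both genes passed in this comparison. Cul1 lies at chr4:77551575-77551874 on the plus strand and Cul4b at chrX:122192250-122192549 on the minus strand (GRCr8). Capitals mark GC boxes (GGGCGG) in Cul1 and CCAAT boxes in Cul4b, on either strand.
Cul1: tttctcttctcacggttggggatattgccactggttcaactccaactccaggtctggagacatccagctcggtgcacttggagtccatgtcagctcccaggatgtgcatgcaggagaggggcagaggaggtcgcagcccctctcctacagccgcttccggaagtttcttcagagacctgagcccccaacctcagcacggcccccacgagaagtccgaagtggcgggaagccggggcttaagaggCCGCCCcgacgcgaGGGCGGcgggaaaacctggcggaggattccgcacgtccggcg
Cul4b: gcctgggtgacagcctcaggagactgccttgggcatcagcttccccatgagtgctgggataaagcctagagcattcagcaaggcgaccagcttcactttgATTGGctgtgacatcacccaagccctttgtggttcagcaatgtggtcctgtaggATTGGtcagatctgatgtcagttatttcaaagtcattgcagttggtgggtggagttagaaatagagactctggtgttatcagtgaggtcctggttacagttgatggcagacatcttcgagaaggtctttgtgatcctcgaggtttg
The Cul1 window had 21 CpG dinucleotides and a GC content of 63.0%, and the Cul4b window 3 CpG dinucleotides and 49.7%. The 2 windows shared none of the 6 motifs. Each is the first window listed for its gene, and other starts were not examined.

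Of 49 F-box genes, 1 rose and 2 fell in PTZ+Q808 versus control, where 1.94% of all tested genes rose and 0.934% fell. The median log2 change of the family was -0.033 (all genes tested -0.020). Fbxo11 (301674), whose product targets Bcl6 in human cells, was 15.3, 18.0, 16.5, 16.3 and 16.7 FPKM in PTZ+Q808, 13.8, 14.7, 12.2, 15.8 and 15.8 in PTZ, and 13.5, 14.1, 12.2 and 12.7 in control. Every PTZ+Q808 library was above every control (log2 change 0.32 ± 0.0745, adjusted p = 0.0400 in limma). Fbxl14 (312675), which targets Snail-family transcription factors, was 4.98, 6.89, 5.92, 7.26 and 6.14 FPKM in PTZ+Q808, 7.16, 6.88, 7.20, 7.93 and 6.89 in PTZ, and 8.02, 8.24, 8.75 and 8.55 in control. The PTZ+Q808 libraries and also the PTZ libraries were all below the controls. It fell by 0.38 on the log2 scale (SE 0.0832, adjusted p = 0.0307 in limma). Fbxo31 (498959), whose product targets cyclin D1 in human cells, was 24.5, 27.8, 22.7, 24.8 and 25.5 FPKM in PTZ+Q808, 25.3, 26.2, 27.6, 26.4 and 27.7 in PTZ, and 28.5, 27.9, 31.3 and 32.8 in control. The highest PTZ+Q808 library, replicate 2, stood just below the lowest control (log2 change -0.26 ± 0.0625, adjusted p = 0.0431 in limma).

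Among 33 E2 genes 1 rose, beside 1.94% of all tested genes. Ube2v2 (287927) encodes a variant without a catalytic cysteine that pairs with Ube2n to build lysine-63 chains. It was 18.3, 21.1, 18.0, 14.8 and 19.4 FPKM in PTZ+Q808, 12.8, 14.4, 11.3, 17.4 and 18.2 in PTZ, and 13.3, 13.8, 11.6 and 11.9 in control. The PTZ libraries were split, with replicates 4 and 5 at the level of PTZ+Q808 and replicates 1, 2 and 3 near the controls. Its log2 change was 0.50 ± 0.126 (adjusted p = 0.0496 in limma). Its partner Ube2n had a log2 change of 0.15 and the paralog Ube2v1 one of 0.06, and neither passed. Reads shared by the 2 variants may have been split by the counting.

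Among 44 USP genes 3 rose and 0 fell, where 1.94% of all tested genes rose and 0.934% fell. Usp45 (313098), which acts on the repair nuclease factor Ercc1 in human cells, was 8.46, 7.78, 7.81, 8.54 and 8.71 FPKM in PTZ+Q808, 7.83, 9.04, 6.93, 6.89 and 8.45 in PTZ, and 5.74, 6.21, 5.41 and 6.75 in control. All libraries of both PTZ groups were above all controls (log2 change 0.40 ± 0.0820, adjusted p = 0.0269 in limma). Usp16 (288306), a protease for ubiquitinated histone H2A, averaged 5.21 ± 0.494 FPKM in PTZ+Q808, 4.34 ± 0.561 in PTZ and 3.52 ± 0.690 in control (SD, n = 5, 5 and 4). PTZ+Q808 replicate 4 (4.36 FPKM) was the only PTZ+Q808 library below a control (replicate 2, 4.46 FPKM). Its log2 change was 0.47 ± 0.107 (adjusted p = 0.0368 in limma). Usp15 (171329), known as a regulator of TGF-beta signalling and of the COP9 signalosome, averaged 9.89 ± 0.639 FPKM in PTZ+Q808, 9.28 ± 0.753 in PTZ and 7.93 ± 0.675 in control, with no overlap between PTZ+Q808 and control (log2 change 0.29 ± 0.0721, adjusted p = 0.0482 in limma). The next USP genes just missed the threshold. Usp9x, a large X-linked protease, had a log2 change of 0.31 (adjusted p = 0.0504), Usp33 of 0.29 (0.0555) and Usp14 of 0.25 (0.0563) in limma, the first of them chosen after its values were seen.

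**Figure D3:**
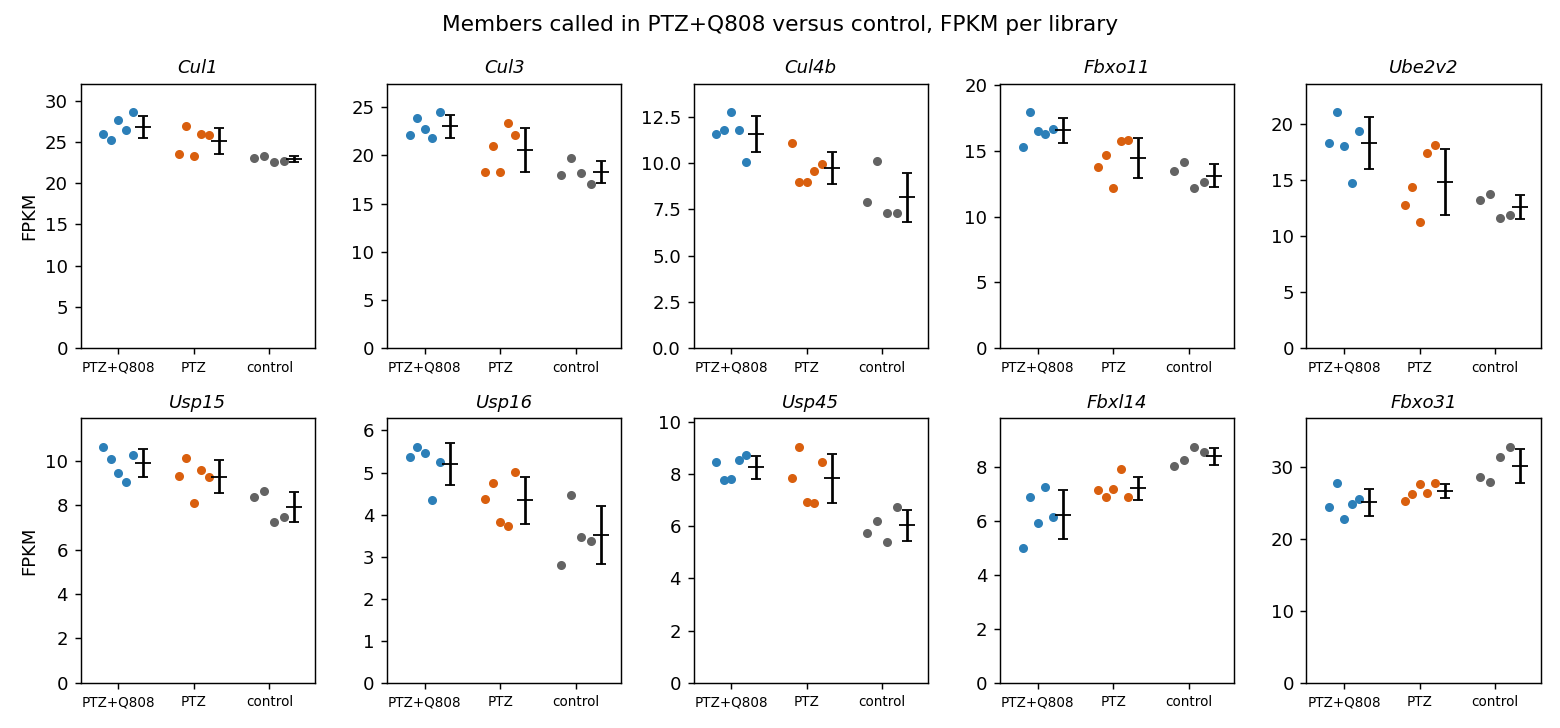
FPKM per library for the 10 members that passed in PTZ+Q808 versus control, with 1 point per library and mean ± SD beside each group (PTZ+Q808 n = 5, PTZ n = 5, control n = 4). For Cul3 the PTZ+Q808 libraries (21.8 to 24.5 FPKM) lie above all controls (17.0 to 19.8), and PTZ libraries span both ranges.

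The direction of these changes was kept in each of 26 alternative settings, in which the smallest log2 change was 0.19 in size, while the calls depended on single libraries. No member was called without control replicate 1 or 3, or without PTZ+Q808 replicate 1 or 3. Without control replicate 4 (Usp45) or PTZ+Q808 replicate 5 (Cul4b) 1 was called. Without PTZ+Q808 replicate 2, 6 members were called, namely Cul1, Cul4b, Fbxl14, Fbxo31, Usp45 and Usp34. Usp34 had not passed with all libraries (adjusted p = 0.0821 in limma). In addition calls ended without control replicate 2 (Cul1, Ube2v2), PTZ replicate 1 (Ube2v2, Usp15), PTZ replicate 2 (Fbxo11, Fbxo31, Ube2v2, Usp15), PTZ replicate 4 or 5 (Cul1, Fbxo31, Usp15) and PTZ+Q808 replicate 2 (Cul3, Fbxo11, Ube2v2, Usp15, Usp16). Without the 3 libraries low in Ttr no member passed, and no gene of the whole table did. Within libraries with Y-linked transcripts the 8 changes of genes that rose were 0.15 to 0.42 and within those without 0.30 to 0.63. For the 2 genes that fell they were -0.32 to -0.13 and -0.46 to -0.40. The genes were called from these same libraries, so a shared direction in both kinds was likely beforehand. The difference between the 2 kinds of library did not pass for any member (smallest adjusted p = 0.692 in limma). Y-linked transcripts were present in 3 PTZ+Q808 and 2 control libraries, which are too few to decide whether the kinds differ.

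Summed markers of other cell types had ranges that overlapped between these groups. Summed over 4 markers each for oligodendrocytes, 5 for meninges and for choroid plexus, oligodendrocyte transcripts were 2180 to 4190 FPKM in PTZ+Q808 and 3010 to 6030 in control (4 of 4 with negative log2 changes, median -0.42). Meningeal transcripts were 51.7 to 187 FPKM in PTZ+Q808 and 41.6 to 91.7 in control (5 of 5 positive, median 0.72). Choroid plexus transcripts were 337 to 6950 FPKM in PTZ+Q808 and 57.4 to 7260 in control, striatal ones 32.8 to 42.9 in PTZ+Q808 and 36.4 to 302 in control, and pituitary ones 2.06 to 676 in PTZ+Q808 and 1.63 to 3.15 in control, the high ends being control replicate 2 for striatum and PTZ+Q808 replicate 3 for pituitary. No marker was at 0 in every library. None of these markers passed the threshold in limma. Their part in the changes of the members was not tested, and in bulk tissue fewer cells of a type and less RNA per cell cannot be told apart.

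PTZ was next set against control, which shows the seizure model without the compound. No member passed in limma, while 0.0314% of all tested genes rose and 0% fell. An unadjusted p under 0.05 was reached by 10 members with higher values in PTZ (4.20% of all tested genes) and 4 with lower values (3.92%). The members of smallest p were Usp45 (log2 change 0.33 ± 0.0820, adjusted p = 0.335 in limma), Fbxl6 (-0.30, 0.431) and Usp33 (0.25, 0.436), Usp33 being a protease that acts on the receptor Robo1 in human cells. Fbxl6 was 5.05, 6.37, 7.04, 5.74 and 4.80 FPKM in PTZ, and 7.59, 7.16, 7.25 and 7.21 in control, with all PTZ libraries below all controls. Usp33 was 33.1, 39.8, 31.2, 37.2 and 41.6 FPKM in PTZ and 29.7, 33.0, 28.6 and 30.7 in control, where only PTZ replicate 3 lay below the highest control. The ranges did not overlap for 3 members higher in PTZ (Usp9x, Usp25 and Usp45, 1.44% of all tested genes) and 3 lower (Fbxl6, Fbxl14 and Fbxo31, 1.59%). Usp9x and Usp25 were named after their values were seen.

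By family, 32 of 44 USP genes had positive log2 changes in PTZ versus control (median 0.062), as had 5 of 7 cullins (0.109), 21 of 33 E2 genes (0.016) and 21 of 49 F-box genes (-0.013), beside 5897 of 12744 tested genes (-0.010). The summed level of the 44 USP genes was 763 to 813 FPKM in PTZ and 728 to 744 in control, and 715 to 812 in PTZ+Q808, where replicate 2 was the lowest. The cullins with the smallest p were Cul4b (0.24, adjusted p = 0.564) and Cul1 (0.13, 0.594), and the E2 genes Ube2q2 (0.13, 0.684) and Ube2d3 (0.12, 0.711) in limma. Ube2d3 is a broadly acting E2 of the same group as Ube2d2. PTZ replicates 4 (93.2 FPKM) and 5 (90.0) were high in Ube2d3, and PTZ replicates 1, 2 and 3 (74.5 to 74.7) lay among the controls (70.7 to 77.9). These are the replicates that were also high in Ube2v2 and Fbxo11.

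PTZ+Q808 was last set against PTZ, the contrast of compound with vehicle within the seizure model. No member passed in limma, and no gene of the whole table did (0% in each direction). An unadjusted p under 0.05 was reached by 7 members with higher values in PTZ+Q808 (3.11% of all tested genes) and 6 with lower values (3.04%). Usp14 had the smallest p. It was 91.1, 93.9, 86.4, 83.1 and 96.7 FPKM in PTZ+Q808 and 72.6, 78.8, 72.1, 86.4 and 86.0 in PTZ, so that PTZ replicates 4 and 5 overlapped the lower end of PTZ+Q808. In control it was 79.8, 73.2, 75.7 and 74.7. Its log2 change was 0.19 ± 0.0615 (adjusted p = 0.760 in limma). Fbxo28 was 11.7, 11.9, 13.4 and 10.8 FPKM in PTZ+Q808 replicates 1, 3, 4 and 5, lower still in replicate 2, and 12.6, 12.4, 14.04, 14.2 and 14.95 in PTZ (-0.23 ± 0.0790, adjusted p = 0.760). All but replicate 4 of PTZ+Q808 lay below PTZ.

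The 2 members of smallest p in each family also included Fbxo11 (0.19), Cul4b (0.23), Ube2v2 (0.30) and Usp21 (-0.15), each at an adjusted p of 0.760 in limma, Cul3 (0.16, adjusted p = 0.776) and Ube2g2 (-0.15, 0.801), an E2 of degradation at the endoplasmic reticulum. All 7 cullins had positive log2 changes (median 0.091, range 0.01 to 0.23), as had 22 of 33 E2 genes (0.034), 22 of 49 F-box genes (-0.012) and 20 of 44 USP genes (-0.014), beside 6158 of 12744 tested genes (-0.004). Usp37, named after its values were seen, was the 1 member whose ranges did not overlap, with higher values in PTZ+Q808 (0.447% of all tested genes in that direction and 0.33% in the other). It was 4.78 to 4.89 FPKM in PTZ+Q808 and 4.08 to 4.64 in PTZ. The PTZ libraries enter this comparison and that of PTZ with control with opposite signs, and the control libraries enter both comparisons with control, so the 3 are not independent.

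Fbxo33 was the most variable member. Its product is an F-box protein reported to target the cold-shock protein YB-1 in human cells. It was 36.1, 11.0, 35.0, 11.7 and 44.8 FPKM in PTZ+Q808, 12.8, 13.1, 14.99, 47.8 and 14.4 in PTZ, and 11.6, 11.5, 11.7 and 13.9 in control. High values thus occurred in PTZ+Q808 replicates 1, 3 and 5 and in PTZ replicate 4, and the other 6 PTZ-treated libraries lay at the level of the controls. The group means did not differ beyond this spread (log2 change 0.92 ± 0.432, adjusted p = 0.247 for PTZ+Q808 versus control, and 0.52 ± 0.432, adjusted p = 0.773 for PTZ versus control in limma). The immediate early gene Fos was 127, 38.2, 126, 27.0 and 142 FPKM in PTZ+Q808, 62.8, 43.2, 113, 175 and 38.8 in PTZ, and 11.2, 13.3, 23.4 and 17.0 in control. The 4 libraries high in Fbxo33 were the 4 highest in Fos. PTZ replicate 3 came next in Fos and was at 14.99 FPKM in Fbxo33. Other immediate early genes were divided. Atf3 was highest in the same 4 libraries (24.5 to 40.2 FPKM). Npas4 (55.8 against 48.6 FPKM), Dusp1 (98.8 against 71.9) and Apold1 (44.3 against 29.1) were higher in PTZ replicate 3 than in PTZ+Q808 replicate 3. Cyr61 was highest in PTZ replicate 1 (28.5 FPKM). A link of Fbxo33 with these genes was not tested.

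Usp38, a protease known from interferon signalling, had the largest variation of the USP genes, and its high values fell in the 4 libraries high in Fbxo33. It was 9.12, 5.70, 9.31, 6.92 and 10.4 FPKM in PTZ+Q808, 7.08, 6.52, 6.43, 10.6 and 6.54 in PTZ, and 6.62, 6.04, 5.64 and 6.57 in control (log2 change for PTZ+Q808 versus control 0.34 ± 0.157, adjusted p = 0.234 in limma). The similarity of the 2 genes was noticed in these values and was not tested. Fbxo32, which encodes atrogin-1, the F-box protein of muscle atrophy, was 3.84, 2.11, 1.76, 4.64 and 2.65 FPKM in PTZ+Q808, 4.27, 4.56, 3.89, 2.55 and 3.60 in PTZ, and 5.31, 7.23, 3.94 and 3.92 in control. Its lowest values lay in PTZ+Q808 and its highest in control replicate 2, and it did not pass (log2 change -0.63 ± 0.214, adjusted p = 0.116 in limma).

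**Figure D4:**
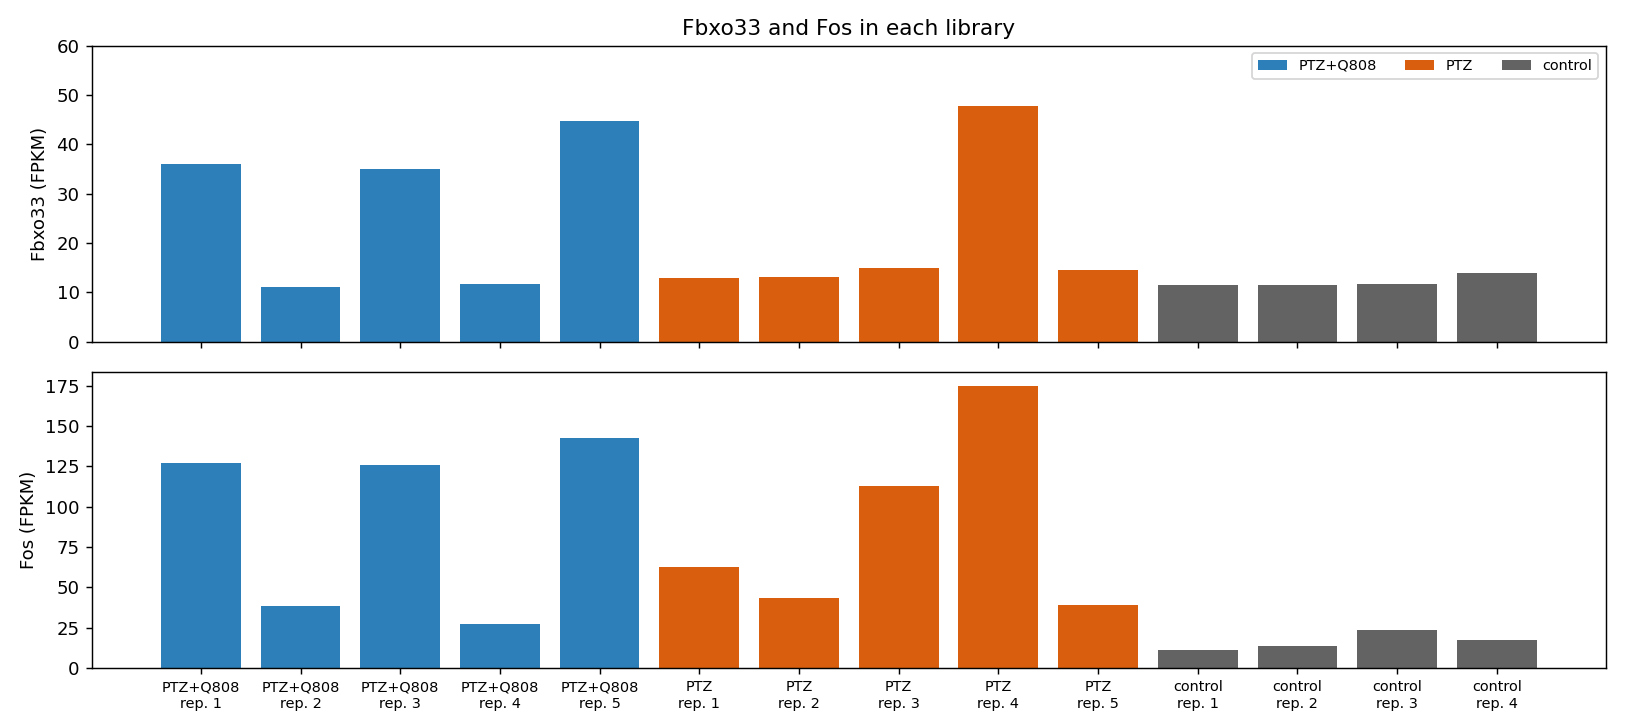
FPKM of the F-box gene Fbxo33 (upper panel) and of the immediate early gene Fos (lower panel), with 1 bar per library in the order PTZ+Q808, PTZ and control. Fbxo33 reached 35.0 to 47.8 FPKM in 4 libraries and 11.0 to 14.99 in the other 10, and the same 4 libraries were the highest in Fos (126 to 175 FPKM).

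The promoter windows of Fbxo33 and Usp38 are shown because their high values fell in the same libraries (RefSeq, GRCr8). Fbxo33 lies at chr6:82667178-82667477 on the minus strand and Usp38 at chr19:43910224-43910523 on the plus strand. Capitals mark GC boxes (GGGCGG on either strand) in both and, in Usp38, the AP-1 site TGANTCA as the first run of capitals.
Fbxo33: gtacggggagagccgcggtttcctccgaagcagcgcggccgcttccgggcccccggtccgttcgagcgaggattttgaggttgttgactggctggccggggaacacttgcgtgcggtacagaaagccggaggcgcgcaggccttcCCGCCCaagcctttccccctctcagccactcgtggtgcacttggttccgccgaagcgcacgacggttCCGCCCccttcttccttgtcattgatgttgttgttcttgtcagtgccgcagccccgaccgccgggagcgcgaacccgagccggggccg
Usp38: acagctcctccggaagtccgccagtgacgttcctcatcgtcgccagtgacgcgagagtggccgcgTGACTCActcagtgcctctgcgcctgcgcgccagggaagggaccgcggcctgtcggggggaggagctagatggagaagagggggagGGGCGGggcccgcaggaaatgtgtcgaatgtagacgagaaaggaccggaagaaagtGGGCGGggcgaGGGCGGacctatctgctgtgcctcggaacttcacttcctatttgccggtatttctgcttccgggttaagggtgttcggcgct
Usp38 was 1 of the 4 members with TGANTCA, a pattern found in 4.61% of the windows of tested genes, and the Fbxo33 window held neither TGANTCA nor TGACGTCA.

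Other genes of the ubiquitin pathway were read from lists beside the members. In PTZ+Q808 versus control 1 of 14 ubiquitin, ubiquitin-like and E1 genes rose, 1 of 25 adaptors and receptors of cullin ligases, 1 of 14 genes of neddylation and the COP9 signalosome, and 1 of 34 proteasome genes, while 0 of 44 other E3 genes and 0 of 30 other deubiquitinase genes passed. None fell. Together 4 of 161 genes rose, or 2.48%, near the 1.94% of all tested genes. The median log2 changes of the lists were 0.02, -0.05, 0.01, 0.01, 0.01 and -0.01 in this order. Cops2, a COP9 signalosome subunit, averaged 26.1 ± 2.56 FPKM in PTZ+Q808, 21.7 ± 4.00 in PTZ and 16.7 ± 1.83 in control (SD, n = 5, 5 and 4), with a log2 change of 0.61 ± 0.120 (adjusted p = 0.0230 in limma). Nae1, a subunit of the E1 of Nedd8, averaged 12.7 ± 1.24, 10.7 ± 1.56 and 9.46 ± 0.578 FPKM in PTZ+Q808, PTZ and control (0.38 ± 0.0957, adjusted p = 0.0477). Crbn, a substrate receptor of Cul4 ligases, averaged 17.5 ± 1.75, 15.8 ± 1.31 and 13.8 ± 0.642 FPKM in PTZ+Q808, PTZ and control (0.32 ± 0.0751, adjusted p = 0.0409).

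The fourth gene, Psmc6, an ATPase subunit of the proteasome, averaged 35.9 ± 3.50 FPKM in PTZ+Q808, 31.1 ± 4.97 in PTZ and 26.0 ± 1.59 in control (0.45 ± 0.103, adjusted p = 0.0372 in limma). Each of the 4, picked by their calls, had all PTZ+Q808 libraries above all controls, as had 4.75% of all tested genes. Their calls ended without control replicate 1, 3 or 4 or PTZ+Q808 replicate 1, 3 or 5, and in part without control replicate 2 (Nae1, Crbn, Psmc6), PTZ replicate 1 (Nae1), PTZ replicate 2 (Nae1, Crbn) and PTZ+Q808 replicate 2 (Nae1, Crbn, Psmc6), and the highest adjusted p over all alternatives was 0.209 in limma. No gene of these 6 lists passed in PTZ versus control or in PTZ+Q808 versus PTZ.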

How the data were processed

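RNA of 14 rat hippocampus samples was sequenced. The authors deposited FPKM per gene and library, which are length- and depth-normalised values and not counts. The submitters' processing notes name Trimmomatic, HISAT2, Bowtie2, SAMtools, Cufflinks, StringTie, HTSeq and DESeq without roles or versions, and the genome build was not given in the sources used here. Groups came from the labelled treatment. Values were taken as log2(FPKM + 1), which understates the changes of low genes, for 12744 genes at 1 FPKM or more in at least 4 libraries. The 3 groups were fitted together with limma 3.58.1 (trend, R 4.3.3, 11 residual degrees of freedom), and p was adjusted by Benjamini-Hochberg over all 12744 genes within each of the 3 comparisons. The fit was tested on simulated data, with noise drawn independently for each gene and library. Such data lack spread shared by the genes of a library, so the test cannot decide whether the calls given here hold. Total counts are unknown, so depth is relative and no counting interval is given. Reads of close paralogs (Ube2d2 and Ube2d3, Ube2v1 and Ube2v2) may be split.

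Named members were those called, the 2 of smallest p per family in PTZ versus control and in PTZ+Q808 versus PTZ, the 3 highest and 2 most variable per family, 3 genes on either side of the level threshold, and called genes of the pathway lists. Some items are not reported here. The members and lists were chosen with earlier results of these data known. Alternatives covered the pseudocount (0.1), the level filter (none, or 5 FPKM), scaling, weights, prior, covariates and libraries left out. Promoter windows of 300 bases came from RefSeq (GRCr8), and only the first window listed for each gene was used. Figures were drawn with matplotlib 3.10.9.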

Additional observations from a re-analysis of the deposited data

Results flagged for a closer look

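Among the named members, 10 of 102 groups of libraries held a library far from the rest of its group by Dixon's test. Chance flags about 1 in 20 groups, but some of these members, among them Fbxo33, Usp38 and Usp16, were named for their large spread, so the count cannot be set against that rate. Fbxo33 stood out at 47.8 FPKM in PTZ replicate 4 (the other PTZ libraries 12.8 to 14.99) and at 13.9 in control replicate 4 (11.5 to 11.8). Usp38 was 10.6 FPKM in PTZ replicate 4 (6.43 to 7.08). PTZ+Q808 replicate 2, the library of lowest relative depth (0.858), stood out for Usp22 at 68.2 FPKM (113 to 127), Fbxl16 at 172 (207 to 213) and Ube2s at 121 (96.6 to 102). The part of depth in these values was not tested. Usp16 was 4.36 FPKM in PTZ+Q808 replicate 4 (5.26 to 5.61). In control, Fbxo28 was 15.6 FPKM in replicate 3 (12.9 to 13.2), Ube2m was 104 in replicate 3 (90.7 to 92.6) and Usp22 was 102 in replicate 2 (111 to 113).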

How the results depend on the processing

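In PTZ+Q808 versus control the 10 called members kept their direction in all 26 alternatives, and 146 of 260 calls were kept, 10 to 19 per member. Members that rose numbered 8, against 2 with no level filter, 14 with weights per library and 0 without the libraries low in Ttr. Those that fell numbered 2, against 1 with no filter, 1 with median-of-ratios scaling, 0 with only the 2 groups fitted, 4 with weights and 0 without the libraries low in Ttr. Leaving out 1 library gave 0 to 10 that rose and 0 to 4 that fell. Over all genes 366 were called, against 190 with no filter, 199 with only the 2 groups, 1100 with weights, 564 with a covariate for Y-linked transcripts, 0 without the libraries low in Ttr and 17 to 673 with 1 library left out. In PTZ versus control 4 genes were called, against 1 with no filter, 0 with only the 2 groups, 7 with weights, 8 with the Y-linked covariate and 1 to 5 with 1 library left out. In PTZ+Q808 versus PTZ 2 genes were called with no filter. The causes were not tested.

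With the replicate block 0 members rose and 0 fell in PTZ+Q808 versus control, and 4 genes were called in all, with 0 in PTZ versus control. Deviations of same-numbered libraries had correlations of -0.28 to 0.143 between PTZ+Q808 and PTZ. They were -0.207 to 0.0513 between PTZ+Q808 and control and -0.21 to 0.113 between PTZ and control. No label says that a replicate number marks a shared litter, batch or day. These few correlations cannot decide whether it does.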

Other observations

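Members known from the circadian clock and the synapse, chosen after values were seen, did not pass in any comparison with control. Fbxl21, an F-box gene known from the clock, averaged 2.47 ± 0.418 FPKM in PTZ+Q808, 2.44 ± 0.297 in PTZ and 2.98 ± 0.484 in control (SD, n = 5, 5 and 4). Usp2, a protease with daily rhythm in many tissues, averaged 18.7 ± 1.71 FPKM in PTZ+Q808, 16.8 ± 3.16 in PTZ and 15.8 ± 1.496 in control. Fbxo45, which acts at the synapse, averaged 14.8 ± 0.8291, 14.8 ± 1.33 and 13.9 ± 0.396 FPKM, and Usp46, known from glutamate receptor turnover, 17.7 ± 0.762, 17.8 ± 0.658 and 16.7 ± 0.733 FPKM in PTZ+Q808, PTZ and control. The immediate early genes are a list outside the ubiquitin pathway. In limma 6 of 19 passed with higher values in PTZ+Q808 versus control (1.94% of all tested genes). In PTZ versus control 2 of 19 did (0.0314%). All 19 had positive log2 changes in both comparisons, with medians of 1.61 and 1.44. In PTZ+Q808 versus PTZ 0 passed, with 12 positive and 7 negative log2 changes.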
